A study of Mus musculus with 6 samples.

Results

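The genes described here encode the zinc-dependent proteases that cut extracellular matrix and cell-surface proteins, their protease-like relatives and their inhibitors. The members are all genes of the deposited tables whose mouse symbol begins Adam, Adamts, Adamtsl or Mmp followed by a number, together with Timp1 to Timp4, leaving out 1 ADAMTS gene that is not analysed here. There were 83 members among 24520 genes: 33 ADAM, 18 ADAMTS, 5 ADAMTSL, 23 MMP and 4 TIMP genes. RNA was sequenced from endothelial cells, the lining cells of blood vessels, sorted by flow cytometry from mouse lung. There were 3 libraries of genotype KO, in a study of the DNA methyltransferase gene Dnmt3a, and 3 libraries of genotype WT. The sources used here do not name the allele, a Cre driver, the age of the mice or the gate of the sort, nor do they say which libraries are from different animals. The p-values therefore cover the scatter among these 6 libraries, part of which may be technical. Dnmt3a itself ran against the labels, at 172, 161 and 161 CPM in KO replicates 1, 2 and 3, against 37.6, 36.5 and 31.8 CPM in WT replicates 1, 2 and 3 (CPM, counts scaled to library size; log2 fold change 2.22, SE 0.11, edgeR adjusted p = 0.001565). KO and WT therefore name the labels of the libraries, and a positive fold change means a higher value in the libraries labelled KO.

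As background, matrix metalloproteases (MMPs) are made as inactive precursors and cut collagens, laminins and other matrix proteins, either in solution or at the cell surface. ADAMs are membrane proteins, many of which release the outer parts of other membrane proteins, whereas ADAMTS proteases are secreted and cut proteoglycans, procollagens and other matrix proteins. ADAMTS-like (ADAMTSL) proteins lack the protease domain, and several lie on fibrillin microfibrils. Tissue inhibitors of metalloproteases (TIMPs) block the active site of these enzymes. In vessels these proteins take part in basement membrane turnover, sprouting and the shedding of receptors and adhesion molecules.

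Members with at least 1 TPM (a read measure scaled to transcript length and library) mostly had CG-rich promoters, whereas silent members had CG-poor ones. RefSeq promoter windows, which run from 250 bases before to 50 bases after a start site on GRCm38.p6, matched 52 of the 83 members. Among the 23 matched members with a mean of at least 1 TPM, the median was 19 CG dinucleotides per window (range 2 to 32). Among the 29 below 1 TPM the median was 1 (range 0 to 46), and over all 32851 RefSeq windows it was 7. None of the 10 matched members without a count in any library had more than 1 CG in its window. The 5 matched ADAMTS genes below 1 TPM went the other way, with 22 to 44 CG and a median of 41. These are descriptions of the windows, and DNA methylation was not analysed here.

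Several silent members lie in a gene cluster on mouse chromosome 9, in which 10 MMP genes stand within 427 kb (mm10, 7272514 to 7699585). This cluster holds the collagenase genes Mmp1a, Mmp1b, Mmp8 and Mmp13, the stromelysin genes Mmp3 and Mmp10, the macrophage elastase gene Mmp12, the matrilysin gene Mmp7, and Mmp20 and Mmp27. Its genes held 4, 54 and 9 estimated counts in all in KO replicates 1, 2 and 3, against 8, 3 and 14 in WT replicates 1, 2 and 3, of library totals of 28136194 to 39999172. Mmp3 gave 49 of the 54 counts of KO replicate 2 and had none in any other library. Mmp1a, Mmp1b, Mmp7 and Mmp13 had none at all. Of the 10 windows, 7 held the heptamer TGANTCA, where N is any base, and those 7 also held TATAAA on either strand. TGANTCA takes in TGACTCA and TGAGTCA, the motif of the AP-1 family of FOS and JUN transcription factors. It also takes in TGAATCA and TGATTCA, which were counted alike. Of all RefSeq windows, 7.81% held TGANTCA on either strand, 13.6% held TATAAA on either strand, and 1.54% held both. For 5 of these genes, chosen because both motifs lie close to the start site, the 120 bases before it are given 5′ to 3′ from RefSeq (GRCm38.p6), with TGANTCA and TATAAA in capitals. The motifs do not overlap in the bases shown.
Mmp13 (chr9:7272394-7272513, plus strand): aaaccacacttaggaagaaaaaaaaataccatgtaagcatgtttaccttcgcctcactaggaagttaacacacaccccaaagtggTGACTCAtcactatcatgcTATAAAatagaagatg
Mmp3 (chr9:7445702-7445821, plus strand): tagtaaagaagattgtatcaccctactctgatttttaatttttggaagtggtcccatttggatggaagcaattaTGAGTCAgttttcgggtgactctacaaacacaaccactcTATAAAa
Mmp10 (chr9:7502222-7502341, plus strand): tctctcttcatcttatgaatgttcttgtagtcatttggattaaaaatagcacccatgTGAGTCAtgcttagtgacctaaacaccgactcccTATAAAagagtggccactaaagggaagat
Mmp1a (chr9:7464021-7464140, plus strand): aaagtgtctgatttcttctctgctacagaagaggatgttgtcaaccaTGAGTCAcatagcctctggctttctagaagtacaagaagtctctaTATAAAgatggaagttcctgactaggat
Mmp7 (chr9:7691970-7692089, plus strand): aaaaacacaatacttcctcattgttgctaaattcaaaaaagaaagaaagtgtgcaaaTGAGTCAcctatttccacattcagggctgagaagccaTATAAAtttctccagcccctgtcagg

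The heptamer read TGACTCA in Mmp13 and TGAGTCA in Mmp3, Mmp10, Mmp1a and Mmp7. It began 35 bases before the start site in Mmp13, 46 in Mmp3, 63 in both Mmp10 and Mmp7, and 73 in Mmp1a. A match is a description of letters and not a bound site. For contrast, the 250 bases before the start site are given for Timp3, Adamts1 and Mmp14, the most abundant inhibitor, ADAMTS and MMP genes, and for Adamts2, a gene detected only in the libraries labelled KO, with every CG in capitals.
Timp3 (chr10:86300162-86300411, plus strand): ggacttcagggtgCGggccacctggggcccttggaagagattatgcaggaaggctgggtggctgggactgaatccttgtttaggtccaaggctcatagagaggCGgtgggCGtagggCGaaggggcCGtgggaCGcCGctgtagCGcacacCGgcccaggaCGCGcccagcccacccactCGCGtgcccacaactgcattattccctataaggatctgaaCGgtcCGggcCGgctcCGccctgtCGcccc
Adamts1 (chr16:85803114-85803363, minus strand): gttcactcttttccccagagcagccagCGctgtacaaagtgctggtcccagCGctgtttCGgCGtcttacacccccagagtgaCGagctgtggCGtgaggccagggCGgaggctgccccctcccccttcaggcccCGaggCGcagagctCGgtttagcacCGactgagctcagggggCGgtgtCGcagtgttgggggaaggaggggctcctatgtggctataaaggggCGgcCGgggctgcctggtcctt
Mmp14 (chr14:54431348-54431597, plus strand): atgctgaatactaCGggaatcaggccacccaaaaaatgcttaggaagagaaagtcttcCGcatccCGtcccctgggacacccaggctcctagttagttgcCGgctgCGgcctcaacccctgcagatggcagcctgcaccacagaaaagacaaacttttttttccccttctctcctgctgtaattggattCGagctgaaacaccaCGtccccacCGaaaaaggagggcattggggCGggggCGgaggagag
Adamts2 (chr11:50601835-50602084, plus strand): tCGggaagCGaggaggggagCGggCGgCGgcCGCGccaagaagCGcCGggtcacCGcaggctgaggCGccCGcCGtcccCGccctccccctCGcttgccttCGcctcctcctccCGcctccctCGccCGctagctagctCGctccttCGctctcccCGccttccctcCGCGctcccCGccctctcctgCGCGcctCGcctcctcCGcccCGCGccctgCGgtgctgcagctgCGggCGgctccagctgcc

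The bases shown hold 18 CG for Timp3, 15 for Adamts1, 10 for Mmp14 and 34 for Adamts2. The shorter stretches of the cluster hold 0 or 1 each. Adamts2 was the most CG-rich of these genes and far less abundant than Timp3, Adamts1 and Mmp14, at a mean of 0.1115 TPM.

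**Figure D1:**
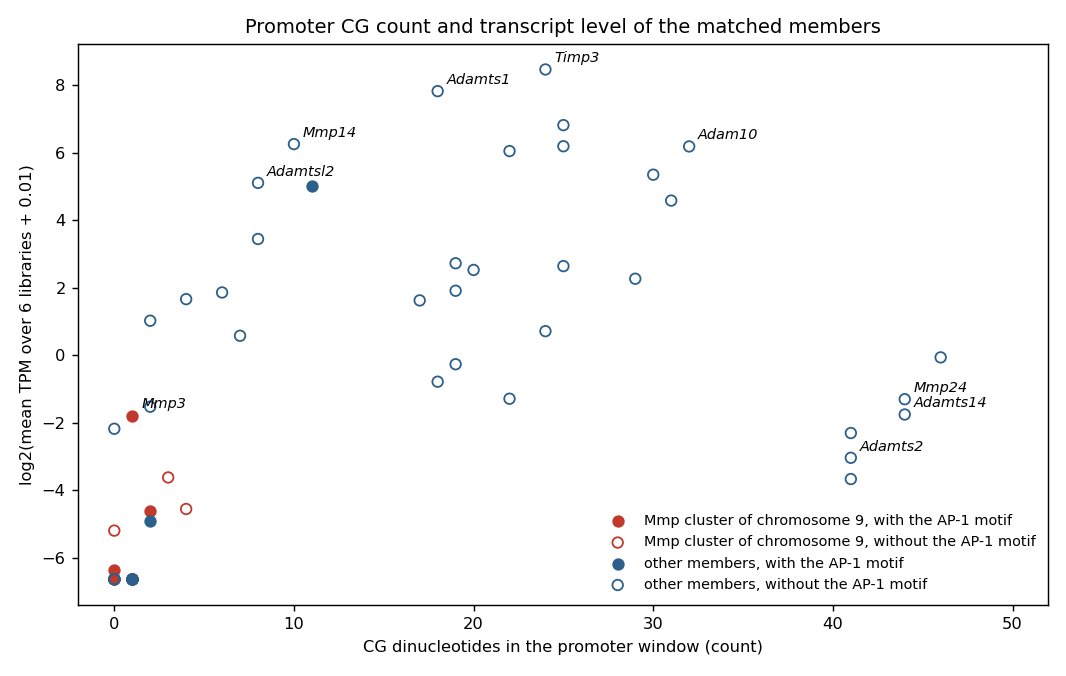
Number of CG dinucleotides in the RefSeq promoter window (x axis) against transcript level, as log2 of the mean TPM over 6 libraries plus 0.01 (y axis), for the 52 matched members. Red marks the MMP cluster of chromosome 9. Filled points hold TGANTCA with any base as N, labelled as the AP-1 motif. The cluster lies at 0 to 4 CG and at low levels, members of at least 1 TPM span 2 to 32 CG, and members with over 40 CG lie below 1 TPM.

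A small set of members made up most of the TPM that the members held together. Of the 83, 39 had a mean of at least 1 TPM over the 6 libraries, 14 of at least 10 TPM, and 15 had no count in any library. The members together took 1148 to 1528 TPM per library, of which Timp3 made up 26.6% on average and the 8 most abundant members 80.5%. In order of mean TPM these were Timp3 (355 ± 122, SD over 6 libraries), Adamts1 (228 ± 39.3), Adam15 (113 ± 23.15), Adamts10 (89.3 ± 19.75), Mmp14 (76.7 ± 10.8), Timp2 (73.35 ± 10.8), Adam10 (73.1 ± 6.66) and Mmp15 (66.4 ± 10.8). Over the 6 libraries the levels of Mmp14, Timp2, Adam10 and Mmp15 overlapped, but Timp2 had the highest mean of these 4 in the libraries labelled KO and lay below Mmp14 and Adam10 in every library labelled WT. Below them came Adam17, Adamtsl2, Adam19, Adam23, Mmp2 and Timp1, with means of 40.9, 34.5, 32.2, 24.0, 22.8 and 10.9 TPM.

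**Figure D2:**
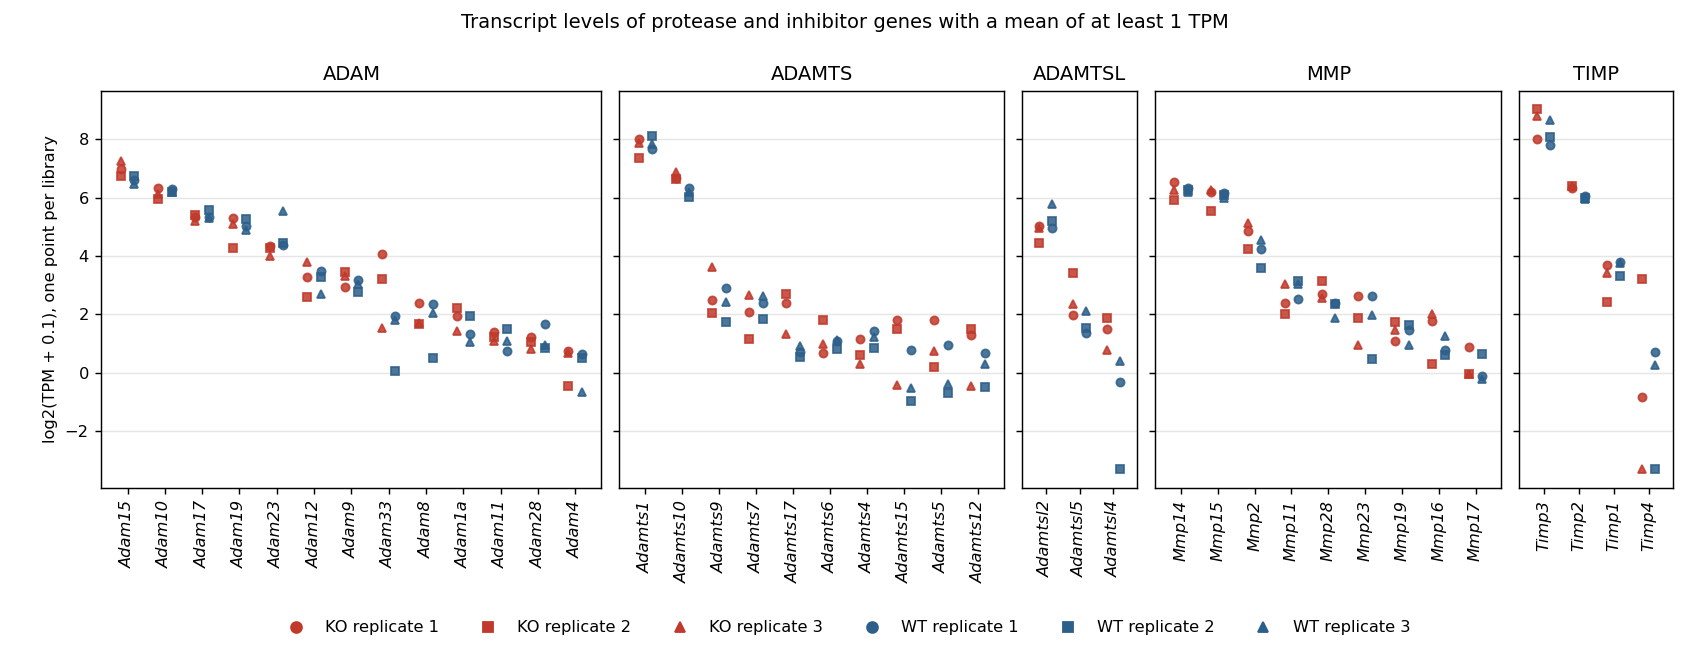
Levels of the 39 members with a mean of at least 1 TPM, as log2(TPM + 0.1) (y axis), by family; each point is 1 library, red for KO and blue for WT, with shapes for replicate numbers. Libraries lie close together for abundant members such as Adam10 and Timp2, while those of Adam33, Adamts15 and Timp4 spread widely within each label.

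No member passed the test between the labels. By edgeR's quasi-likelihood test, 0 of 51 tested members were higher and 0 lower at an adjusted p under 0.05, where 0.0205% of all 14667 tested genes were called higher, 0.0136% lower and 0.0341% in either direction. At an unadjusted p under 0.05, 7 members were higher in the libraries labelled KO, where 6.88% of all tested genes were, and 0 were lower, where 5.77% were (12.6% in either direction). DESeq2, run as an alternative, called 2 members, both higher, among the 53 to which it gave an adjusted p. It called 1.41% of all genes higher, 1.27% lower and 2.68% in either direction. Fitted log2 fold changes were above 0 for 32 of the 51 members (62.7%) with a median of 0.10, against 50.9% and 0.01 over all tested genes. For 33 of the 51 the log2 fold change was under 0.5 in size. The other 32 members were too low to test, and 17 of them had a count in some library, at most 49. Groups did not overlap in CPM for 7 members with KO above WT (13.7%, against 10.9% of all tested genes) and for 1 with KO below WT (1.96%, against 9.42%), where 20.3% of all genes did so either way. Adamts2, at 0 in every WT library, is among these 7, the 7 at an unadjusted p under 0.05 and the 2 DESeq2 calls. It passed the filter only through the libraries labelled KO, so it gives these counts no independent support.

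**Figure D3:**
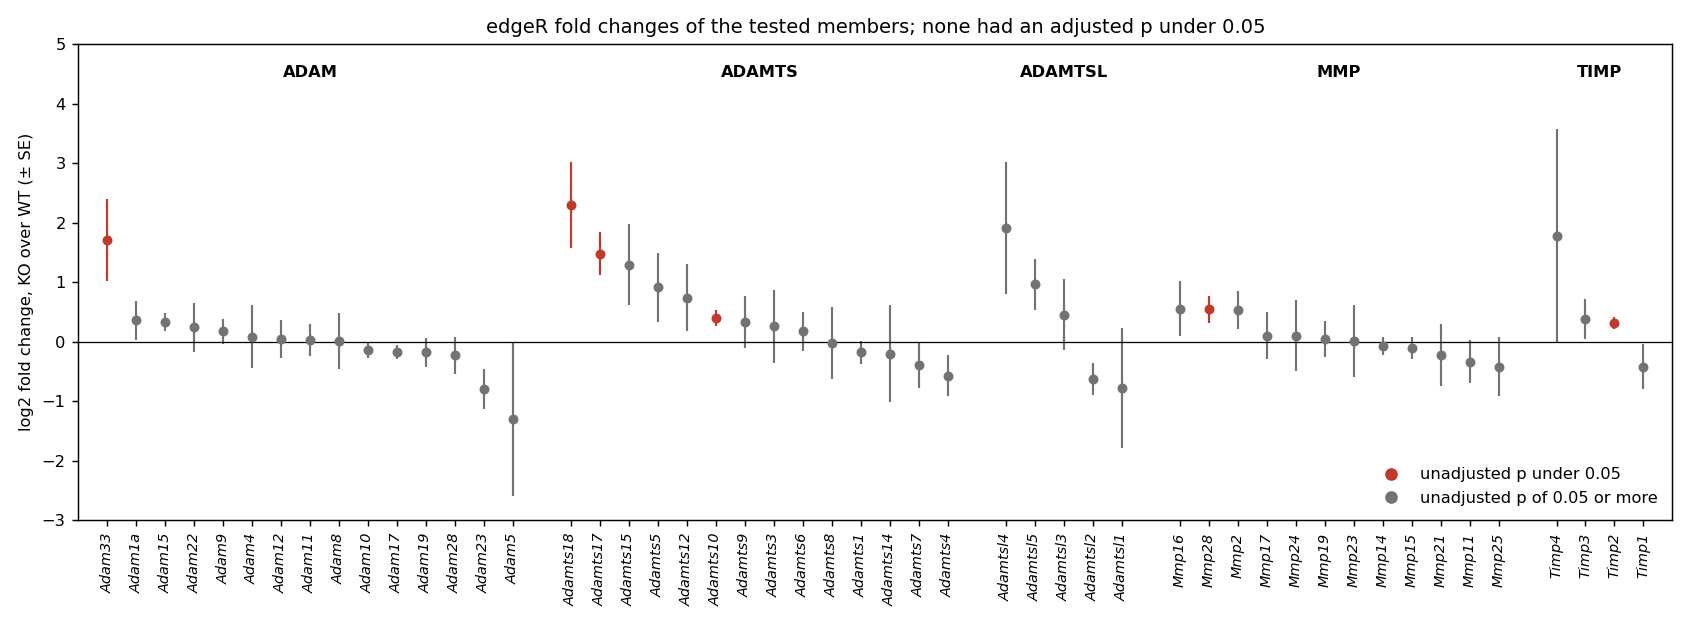
Log2 fold change, KO over WT, of 50 tested members by family (y axis, with bars of 1 standard error); Adamts2 is left out because its WT libraries were at 0. The members with an unadjusted p under 0.05, in red, lie above 0, and none of the members had an adjusted p under 0.05.

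Among the inhibitors, Timp2 had the most closely grouped libraries. Timp2, which blocks many MMPs and also helps MMP14 to activate the MMP2 precursor (ENSMUSG00000017466, chromosome 11, 118301069 to 118355740, minus strand, mm10), was at 161.5, 176 and 179.5 CPM in KO replicates 1, 2 and 3, against 140.1, 132 and 144 CPM in WT replicates 1, 2 and 3. All KO libraries lay above all WT libraries. The difference did not pass (log2 fold change 0.31, SE 0.10, unadjusted p = 0.01695, adjusted p = 0.324). In TPM the means were 83.1 ± 2.08 in the libraries labelled KO and 63.6 ± 1.945 in those labelled WT (SD, n = 3 each).

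Timp3, a matrix-bound inhibitor that also acts on ADAM17 and on aggrecan-cutting ADAMTS proteases (ENSMUSG00000020044, chromosome 10, 86300372 to 86349506, plus strand), varied widely within each label. It was at 683, 1450 and 1249 CPM in KO replicates 1, 2 and 3, against 620.1, 747.5 and 1231 CPM in WT replicates 1, 2 and 3. KO replicate 1 lay among the lower WT values and WT replicate 3 lay near KO replicate 3, so the groups overlapped (log2 fold change 0.38, SE 0.34, adjusted p = 0.657). The gene overlaps Syn3, which is on the opposite strand and was at 1.185 to 3.89 CPM. The sources used here do not say whether strand was recorded, so reads of overlapping genes may have been shared. Timp1, Timp4, Adamts7 and Mmp19 likewise overlap a gene on the opposite strand (Syn1, Syn2, Tbc1d2b and Tmem198b, in that order).

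Timp1, a secreted inhibitor known to respond to inflammation, was at 4.87, 2.15 and 4.20 CPM in KO replicates 1, 2 and 3, against 5.48, 3.76 and 5.81 CPM in WT replicates 1, 2 and 3 (log2 fold change -0.42, SE 0.38, adjusted p = 0.658). KO replicate 2, the lowest library for Timp1, was the highest for Timp3 and Timp4. Timp4, the least abundant inhibitor, had 10, 200 and 0 counts in KO replicates 1, 2 and 3, against 37, 0 and 33 counts in WT replicates 1, 2 and 3. It rested on few libraries, and its log2 fold change of 1.78 (SE 1.78) became -1.96 without KO replicate 2.

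The membrane-anchored MMPs of these cells overlapped between the labels. Mmp14, which cuts fibrillar collagen and activates the MMP2 precursor (ENSMUSG00000000957, chromosome 14, 54431612 to 54445364, plus strand), was at 195, 132 and 172.5 CPM in KO replicates 1, 2 and 3, against 182, 169.8 and 176 CPM in WT replicates 1, 2 and 3. Mmp15, also a membrane-type MMP gene (ENSMUSG00000031790, chromosome 8, 95352268 to 95375080, plus strand), was at 177, 118.5 and 196 CPM in the libraries labelled KO, against 182, 174 and 174 CPM in those labelled WT. In both genes KO replicate 2 was the lowest of all libraries and the WT libraries lay close together. The log2 fold changes were -0.08 (SE 0.15) for Mmp14 and -0.11 (SE 0.18) for Mmp15, and became 0.06 and 0.07 without KO replicate 2.

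Mmp2, gelatinase A, which degrades denatured collagen and basement membrane collagen (ENSMUSG00000031740, chromosome 8, 92827291 to 92853420, plus strand), was at 48.6, 33.2 and 62.2 CPM in KO replicates 1, 2 and 3, against 33.3, 20.96 and 45.2 CPM in WT replicates 1, 2 and 3. The groups overlapped (log2 fold change 0.53, SE 0.32, adjusted p = 0.507). The other gelatinase gene, Mmp9, known from neutrophils and macrophages, had 0, 27 and 3 counts in KO replicates 1, 2 and 3, against 0, 0 and 3 counts in WT replicates 1, 2 and 3, and was too low to test. The list of 10 neutrophil markers itself holds Mmp8 and Mmp9. Its sums were 32.5, 41.7 and 35.65 CPM in KO replicates 1, 2 and 3. In WT replicates 1, 2 and 3 they were 46.9, 33.6 and 30.1 CPM. Of these markers 5 were high enough to test, and 1, Ly6g, was at 0 in every library. The part of neutrophil RNA in the Mmp9 counts was not tested.

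Mmp28, epilysin, a secreted MMP (ENSMUSG00000020682, chromosome 11, 83440768 to 83463071, minus strand), was at 12.4, 17.7 and 11.95 CPM in KO replicates 1, 2 and 3, against 10.7, 10.2 and 7.955 CPM in WT replicates 1, 2 and 3. The groups did not overlap, by a small margin, and the difference did not pass (log2 fold change 0.55, SE 0.23, unadjusted p = 0.0459, adjusted p = 0.386). Mmp11, stromelysin-3, which is activated inside the cell by furin, overlapped between the labels (log2 fold change -0.34, SE 0.37). The remaining 7 tested MMP genes had log2 fold changes between -0.42 (Mmp25) and 0.55 (Mmp16), with adjusted p-values of 0.6395 to 0.997.

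The main sheddase genes of the ADAM family varied little across libraries. Adam10, which releases the outer parts of Notch receptors and of VE-cadherin (ENSMUSG00000054693, chromosome 9, 70678997 to 70780229, plus strand), was at 209, 169 and 192.5 CPM in KO replicates 1, 2 and 3, against 217, 200.4 and 215.5 CPM in WT replicates 1, 2 and 3. Adam17, the enzyme gene for the release of tumour necrosis factor (ENSMUSG00000052593, chromosome 12, 21323509 to 21373632, minus strand), was at 98.1, 109 and 93.8 CPM in the libraries labelled KO, against 105, 123.1 and 111 CPM in those labelled WT. The groups overlapped in both, and the highest library stood over the lowest by 1.28 times for Adam10 and 1.31 times for Adam17. The log2 fold changes were -0.15 (SE 0.12) for Adam10 and -0.17 (SE 0.11) for Adam17, which overlaps Iah1 on the opposite strand.

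Adam15, found at endothelial junctions (ENSMUSG00000028041, chromosome 3, 89338542 to 89349996, minus strand), was at 199, 177 and 256 CPM in KO replicates 1, 2 and 3, against 163, 179 and 161.5 CPM in WT replicates 1, 2 and 3. KO replicate 2 lay inside the WT range (log2 fold change 0.33, SE 0.15, adjusted p = 0.418). Adam19, also called meltrin beta, had a log2 fold change of -0.18 (SE 0.24), which became 0.06 without KO replicate 2.

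Adam23 was the 1 tested member with every KO library below every WT library. It encodes a family member without protease activity that is known from neurons (ENSMUSG00000025964, chromosome 1, 63445891 to 63596276, plus strand). It was at 71.7, 71.2 and 59.4 CPM in KO replicates 1, 2 and 3, against 77.4, 82.1 and 191 CPM in WT replicates 1, 2 and 3. WT replicate 3 stood far above the other libraries. The log2 fold change was -0.79 with SE 0.34 (adjusted p = 0.396) and -0.24 without WT replicate 3.

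Adam33, known as an asthma susceptibility gene in human and as a gene of mesenchymal cells (ENSMUSG00000027318, chromosome 2, 131050591 to 131063814, minus strand), was at 38.15, 22.5 and 6.77 CPM in KO replicates 1, 2 and 3, against 9.25, 2.30 and 8.99 CPM in WT replicates 1, 2 and 3. KO replicate 3 lay below WT replicates 1 and 3, so the groups overlapped (log2 fold change 1.71, SE 0.69, unadjusted p = 0.0411, adjusted p = 0.377). The log2 fold change was 1.09 without KO replicate 1. ADAM genes known from testis were silent on chromosome 8. Adam20, Adam24, Adam25 and Adam39 lie together (40675077 to 40827037) and had no count in any library, and Adam26a, Adam26b and Adam34 (43519762 to 43710049) had 1 count in all, in WT replicate 1. A further cluster (24602246 to 25016927) holds Adam9, a widely expressed sheddase gene at a mean of 8.65 TPM, beside Adam3, Adam5, Adam18 and Adam32, none of which had more than 22 counts in a library. Adam5 had the lowest edgeR value of the 51 tested members (log2 fold change -1.30, SE 1.29, adjusted p = 0.694), on 11, 3 and 1 counts in KO replicates 1, 2 and 3, against 0, 20 and 22 counts in WT replicates 1, 2 and 3.

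Of the 15 tested ADAMTS genes, 4 had an unadjusted p under 0.05, all higher. Over all tested genes, 6.88% were higher and 12.6% passed in either direction. The 4 include Adamts2, which passed the filter on low counts only through the libraries labelled KO. The families were not tested against each other. Adamts1, the abundant protease gene whose product cuts versican and aggrecan (ENSMUSG00000022893, chromosome 16, 85793827 to 85803113, minus strand), was not among the 4: it was at 703, 477 and 688 CPM in KO replicates 1, 2 and 3, against 592, 798 and 728.5 CPM in WT replicates 1, 2 and 3 (log2 fold change -0.18, SE 0.19). Its neighbour Adamts5, an aggrecanase gene 53.1 kb away, was at 15.9, 5.085 and 7.69 CPM in the libraries labelled KO, against 9.04, 2.57 and 3.58 CPM in those labelled WT. Both overlapped between the labels.

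Adamts10, whose product binds fibrillin-1 and is mutated in a human connective tissue syndrome (ENSMUSG00000024299, chromosome 17, 33524204 to 33553782, plus strand), was at 192, 204 and 227 CPM in KO replicates 1, 2 and 3, against 166, 134 and 173 CPM in WT replicates 1, 2 and 3. All KO libraries lay above all WT libraries, and the difference did not pass (log2 fold change 0.40, SE 0.14, unadjusted p = 0.0209, adjusted p = 0.332). Adamts17, a close relative mutated in a human syndrome of the same kind (ENSMUSG00000058145, chromosome 7, 66839735 to 67153171, plus strand), was at 17.8, 22.95 and 8.87 CPM in KO replicates 1, 2 and 3, against 5.69, 4.98 and 7.11 CPM in WT replicates 1, 2 and 3. The groups did not overlap, and KO replicate 3 lay nearest to the WT values. Its log2 fold change was 1.48 (SE 0.36, unadjusted p = 0.00375, edgeR adjusted p = 0.282), while DESeq2 called it (log2 fold change 1.47, adjusted p = 0.00630). Without each library in turn, edgeR gave log2 fold changes of 1.17 to 1.78.

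Adamts18, a secreted relative with few known substrates (ENSMUSG00000053399, chromosome 8, 113697126 to 113848738, minus strand), had 31, 120 and 48 counts in KO replicates 1, 2 and 3, against 25, 12 and 7 counts in WT replicates 1, 2 and 3. KO replicate 2 was the highest, and in CPM all KO libraries lay above all WT libraries (log2 fold change 2.29, SE 0.72, unadjusted p = 0.0147, adjusted p = 0.322). Left-out libraries moved the fold change, to 1.56 on the log2 scale without KO replicate 2 and to 2.88 without WT replicate 1.

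Adamts2, the gene of the protease that removes the N-terminal propeptide of fibrillar procollagens (ENSMUSG00000036545, chromosome 11, 50602084 to 50807573, plus strand), had 25, 50 and 13 counts in KO replicates 1, 2 and 3, against 0, 0 and 0 counts in WT replicates 1, 2 and 3. It was thus detected in every library labelled KO and in none labelled WT. With 3 counts per WT library as the floor, its mean of 0.979 CPM in the libraries labelled KO was at least 10.8-fold higher than in those labelled WT. Without KO replicate 2 the value was at least 7.08-fold. The gene passed the filter on low counts only through the libraries labelled KO, so its p-values and its place among the 7 members above are no independent support of a difference. Its edgeR p was 0.0008665 unadjusted and 0.233 adjusted, and DESeq2 called it (adjusted p = 0.000911). Both other genes of its subfamily overlapped between the labels. Adamts3 had 40, 21 and 18 counts in KO replicates 1, 2 and 3, against 42, 13 and 19 counts in WT replicates 1, 2 and 3, and Adamts14 had 10, 44 and 24 counts in KO replicates 1, 2 and 3, against 21, 9 and 77 counts in WT replicates 1, 2 and 3.

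Most fibroblast markers had higher fitted values in the libraries labelled KO. The list of 16 fibroblast markers summed to 437 to 628 CPM in the libraries labelled KO and to 265 to 359 CPM in those labelled WT. Col1a1, Col1a2 and Col3a1 made up most of that sum in every library labelled KO. Without them, the sum over the other markers overlapped between the labels. Of the 16, 14 had log2 fold changes above 0, with a median of 0.90 over the list. edgeR called 1, Col3a1, where it called 0.0205% of all tested genes higher. DESeq2 called 5, all higher, where it called 1.41% of all genes higher. None of them was at 0 in all libraries. Dcn, the decorin gene of fibroblasts, was at 2.64, 2.58 and 2.47 CPM in KO replicates 1, 2 and 3, against 0.122, 0.135 and 0.212 CPM in WT replicates 1, 2 and 3 (adjusted p = 0.0819). In bulk samples, more cells of a type and more RNA per cell cannot be told apart, and the part of fibroblast RNA in the values of Adamts2, Adamts10, Adamts17, Adamts18, Adam33, Mmp28 and Timp2 was not tested.

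Other marker sums also differed between the labels without overlap. Lymphatic endothelial markers (7 genes) summed to 985 to 1305 CPM in the libraries labelled KO and to 357 to 690.1 CPM in those labelled WT. Lyve1, a hyaluronan receptor gene, made up most of that sum, at 789, 828 and 1080 CPM in the libraries labelled KO, against 467, 459.9 and 194 CPM in those labelled WT, while of the 5 tested markers 3 had log2 fold changes above 0 and 2 below, with a median of 0.16. Venous endothelial markers (8 genes) summed to 2114 to 3030 CPM in the libraries labelled KO and to 1883 to 1955 CPM in those labelled WT, with 6 of 8 log2 fold changes above 0 and a median of 0.66. DESeq2 called 3 venous markers and 1 lymphatic marker, all higher, where it called 1.41% of all genes higher. edgeR called none of either list. At an unadjusted edgeR p under 0.05, 5 venous markers and 1 lymphatic marker were higher and none lower, where 6.88% of all tested genes were higher. Macrophage markers (13 genes, of which Marco, Csf1r, C1qc and Itgax were at 0) summed to 6.13 to 8.89 CPM in the libraries labelled KO and to 11.1 to 19.3 CPM in those labelled WT, and mesothelial markers (6 genes) to 0.0677 to 0.991 CPM in the libraries labelled KO and to 1.12 to 2.13 CPM in those labelled WT. Only 3 of these macrophage markers and 1 of these mesothelial markers were high enough to test. The 16 pan-endothelial markers, by contrast, overlapped, at 21516 to 26240 CPM in the libraries labelled KO and 23068 to 28074 CPM in those labelled WT. The part of these cells in the members' values was not tested.

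**Figure D4:**
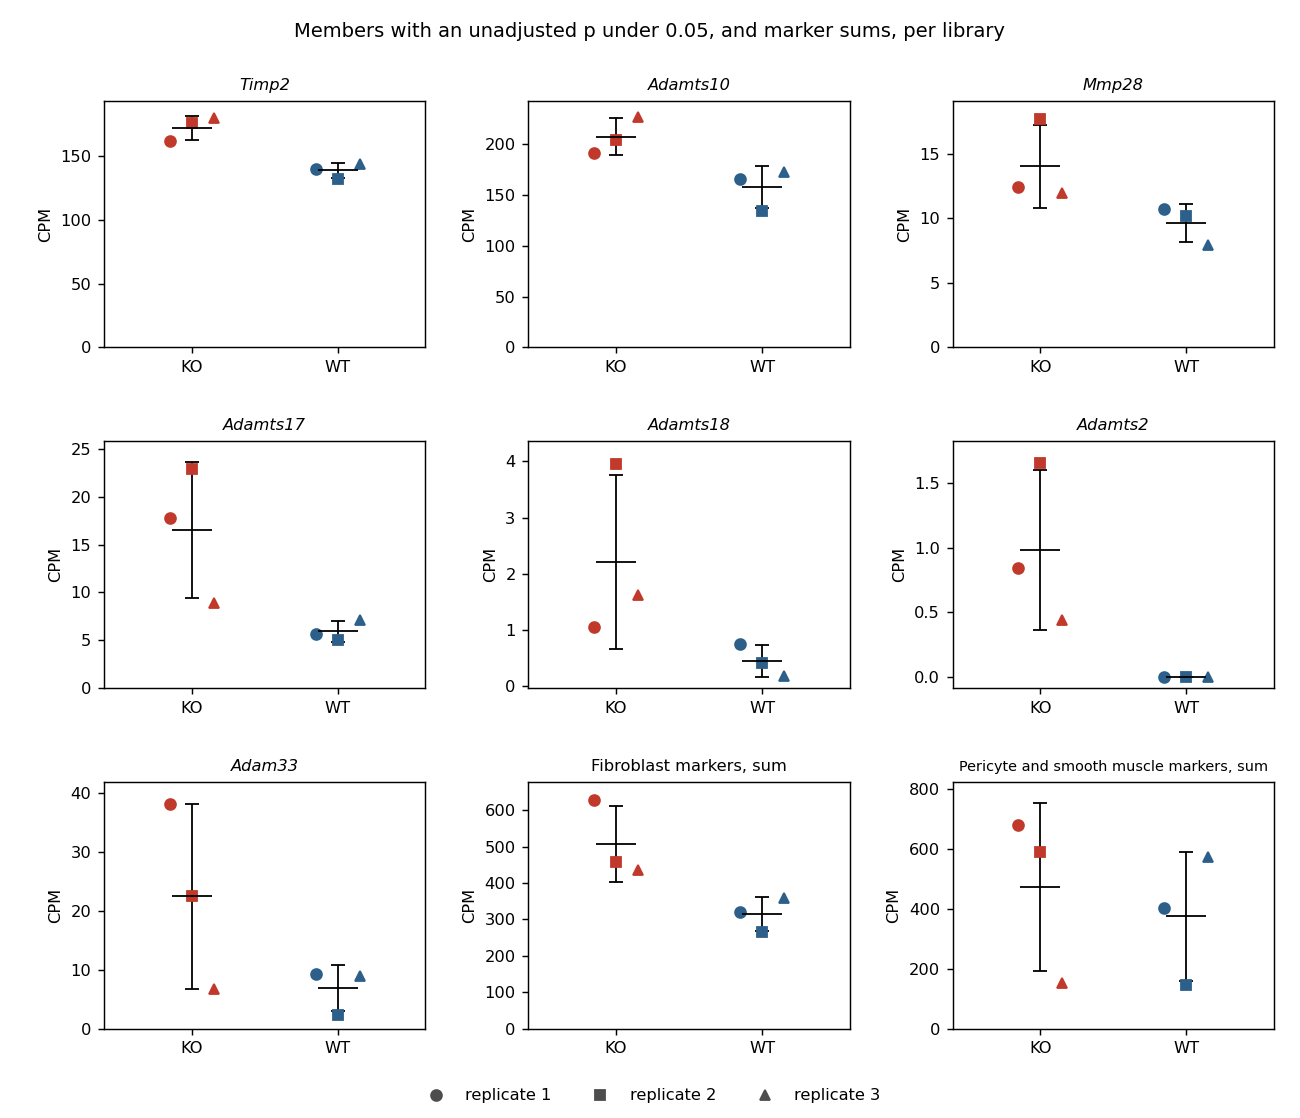
CPM in each library (points, with shapes for replicate numbers) and the mean with its SD (bars, n = 3) for the members with an unadjusted p under 0.05, and the summed CPM of the fibroblast and of the pericyte and smooth muscle markers. Adamts2 is at 0 in all WT libraries, Adam33 overlaps between the labels, and KO replicate 3 and WT replicate 2 are the lowest in the pericyte and smooth muscle sum.

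Some members shared their lowest libraries. For 8 of the 51 tested members (15.7%), KO replicate 3 and WT replicate 2 held the lowest pair of CPM values, against 7.38% of all tested genes; this pattern was chosen after the values were seen. They were Adam28, Adam33, Adamts12, Adamts15, Adamtsl1, Adamtsl3, Mmp23 and Timp4. Adamts15, a proteoglycanase gene, was at 9.87, 8.45 and 2.03 CPM in KO replicates 1, 2 and 3, against 4.93, 1.32 and 2.04 CPM in WT replicates 1, 2 and 3. Adamts12, related to Adamts7, was at 8.25, 10.2 and 2.37 CPM in the libraries labelled KO, against 5.57, 2.30 and 4.59 CPM in those labelled WT. The 13 pericyte and smooth muscle markers had the same low libraries, with sums of 677, 587 and 152 CPM in KO replicates 1, 2 and 3, against 402.5, 146 and 573 CPM in WT replicates 1, 2 and 3. Alveolar type 2 markers (10 genes) had them too, with sums of 3651, 2379 and 778.5 CPM in KO replicates 1, 2 and 3, against 9420, 341 and 4164 CPM in WT replicates 1, 2 and 3. No marker of either list was at 0 in all libraries, and the part of these cells in the members' values was not tested.

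ADAMTSL genes had fold changes in both directions. Adamtsl2, whose product binds fibrillin and a TGF-beta binding protein (ENSMUSG00000036040, chromosome 2, 27079379 to 27108981, plus strand), was at 57.15, 39.95 and 57.8 CPM in KO replicates 1, 2 and 3, against 57.8, 67.65 and 113 CPM in WT replicates 1, 2 and 3. The groups overlapped only by a small margin, at 57.83 CPM in KO replicate 3 against 57.79 CPM in WT replicate 1 (log2 fold change -0.62, SE 0.27, adjusted p = 0.399). WT replicate 3 stood apart, as for Adam23. Without that library the log2 fold change was -0.28. Adamtsl4, which encodes a fibrillin-1 binding protein (ENSMUSG00000015850, chromosome 3, 95676201 to 95687917, minus strand), was at 6.02, 8.22 and 3.86 CPM in KO replicates 1, 2 and 3, against 1.64, 0 and 3.13 CPM in WT replicates 1, 2 and 3. The groups did not overlap, and WT replicate 2 stood apart at 0. The difference did not pass (log2 fold change 1.91, SE 1.11, adjusted p = 0.499), and its log2 fold change was 1.33 without that library and 2.86 without WT replicate 3. It was higher still by limma-voom with quality weights.

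Adamtsl5, also a microfibril protein gene, was at 6.76, 19.5 and 9.48 CPM in the libraries labelled KO, against 4.504, 5.59 and 8.25 CPM in those labelled WT. KO replicate 2 was the highest and KO replicate 1 lay inside the WT range (log2 fold change 0.96, SE 0.43, adjusted p = 0.407). Adamtsl3 had a log2 fold change of 0.45 (SE 0.60). Adamts7, a vascular protease gene whose product cuts cartilage oligomeric matrix protein, and Adamts9, whose product cuts versican, overlapped between the labels (log2 fold changes -0.40, SE 0.39, and 0.34, SE 0.44).

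Genes that activate, bind or restrain these proteases did not pass either. Of 31 listed regulators and partners, 25 were tested, 15 with log2 fold changes above 0 and 10 below, and a median of 0.13. edgeR and DESeq2 called none of them, and 1 had an unadjusted p under 0.05, where 12.6% of all tested genes did. That gene was Thbs1, thrombospondin-1, a matrix protein that binds MMP2, at 73.1, 71.4 and 42.7 CPM in KO replicates 1, 2 and 3, against 34.8, 23.6 and 45.8 CPM in WT replicates 1, 2 and 3 (log2 fold change 0.85, SE 0.29, adjusted p = 0.330). KO replicate 3 lay below WT replicate 3. Sparc, a collagen-binding matrix protein, and Tspan14, a tetraspanin partner of ADAM10, had the highest mean CPM of the list, which is not scaled to transcript length, with log2 fold changes of -0.45 (SE 0.23) and -0.28 (SE 0.15).

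Among 22 listed matrix substrates, 21 were tested, 13 with log2 fold changes above 0 and 8 below, and edgeR called 1, Col3a1. Over all tested genes edgeR called 0.0205% higher. DESeq2 called 3 substrates higher and 1 lower, where it called 1.41% and 1.27% of all genes. At an unadjusted p under 0.05, 6 substrates were higher and 3 lower, where 6.88% and 5.77% of all tested genes were. Col3a1, the type III collagen chain, was at 144, 132 and 123.5 CPM in KO replicates 1, 2 and 3, against 58.1, 52.7 and 60.7 CPM in WT replicates 1, 2 and 3. The libraries labelled KO were all higher (log2 fold change 1.22, SE 0.11, adjusted p = 0.0223). Leaving out a library, whichever it was, ended the call (adjusted p = 0.0781 to 0.293). It was also lost with sex as a covariate (adjusted p = 0.0591), with the replicate number as a block (adjusted p = 0.289) and by limma on log2(TPM + 1) without a filter (adjusted p = 0.0630). Over all alternatives the log2 fold change lay between 1.16 and 1.29. Eln, the elastin gene, was at 2225, 1235 and 1484 CPM in the libraries labelled KO, against 611, 435 and 773 CPM in those labelled WT (log2 fold change 1.44, SE 0.28, adjusted p = 0.240). Col1a1, a type I collagen chain whose procollagen ADAMTS2 trims, was at 126.5, 78.2 and 70.3 CPM in the libraries labelled KO, against 50.0, 37.9 and 56.3 CPM in those labelled WT (log2 fold change 0.93, SE 0.25, adjusted p = 0.293). The groups did not overlap in either gene, and neither passed by edgeR. DESeq2 called both, with adjusted p = 3.21e-05 for Eln and 0.0229 for Col1a1. Lama4, a laminin chain of endothelial basement membrane, was at 116, 76.5 and 74.5 CPM in the libraries labelled KO, against 136, 136 and 190.2 CPM in those labelled WT (log2 fold change -0.79, SE 0.22, edgeR adjusted p = 0.293). DESeq2 called Lama4 lower (adjusted p = 0.0254). Col1a1, Col1a2 and Col3a1 are also on the fibroblast list, so these values and the marker sums are in part the same measurement.

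Of 34 membrane proteins known to be shed, 33 were tested, 24 with log2 fold changes above 0 and 9 below, and a median of 0.10. edgeR and DESeq2 called none of them. At an unadjusted p under 0.05, 5 were higher and 1 lower, where 6.88% and 5.77% of all tested genes were. F11r, which encodes the junction protein JAM-A, was at 699, 645 and 715 CPM in KO replicates 1, 2 and 3, against 775, 911 and 926 CPM in WT replicates 1, 2 and 3. The libraries labelled KO all lay below those labelled WT (log2 fold change -0.34, SE 0.12, adjusted p = 0.341). Cx3cl1, a membrane-bound chemokine gene, was at 57.0, 82.35 and 69.0 CPM in the libraries labelled KO, against 49.9, 55.9 and 36.6 CPM in those labelled WT (log2 fold change 0.55, SE 0.20, adjusted p = 0.342). Its product is released by ADAM10 and ADAM17. Dll1, a Notch ligand gene, and Sele, the E-selectin gene, had log2 fold changes of 0.57 with SE 0.21 and 1.01 with SE 0.38, and neither passed. Cdh5, VE-cadherin, and Thbd, thrombomodulin, had the highest mean CPM of the list, with log2 fold changes of -0.09 (SE 0.13) for Cdh5 and 0.50 (SE 0.27) for Thbd.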

How the data were processed

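Libraries were made from total RNA of sorted lung endothelial cells with a SMARTer ultra-low-input kit, per the labels' protocols. The submitters' processing notes name kallisto and mm10, while the version, the annotation and the step that sums transcripts per gene remain unstated in what was used here. Estimated counts per gene, whole numbers without normalization, and TPM, summing to 875864 to 885609 per library, were deposited by the authors. Symbols and positions came from GENCODE M21 (24298 of 24520 identifiers matched) and promoter sequences from RefSeq (GRCm38.p6), using the window nearest to the GENCODE start.

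Counts were tested with edgeR 4.0.16 (R 4.3.3) by the quasi-likelihood test, with TMM factors, filterByExpr and Benjamini-Hochberg adjustment at 0.05 over 14667 genes, with 3 libraries per label and no covariate. The SE is the log2 fold change divided by the square root of F. CPM values are scaled by TMM, and 3 counts, the floor per library, are 0.0796 to 0.102 CPM; floors cover counting error only. The code was tested on simulated data of 14667 genes, with 100 changed 2-fold and 100 changed 4-fold. edgeR recovered 28% and 61% of these, with 7 false calls. DESeq2 recovered 56% and 77%, with 51 false calls. Chi-square tests of the counts found every pair of libraries to differ beyond sampling noise. Alternatives were RLE scaling, DESeq2 1.42.0, other filters, the replicate number as a block, limma 3.58.1 on log2(TPM + 1) and log2(TPM + 0.1), limma-voom, sex read from the data as a covariate, and leaving out each library. The members, lists and tests were chosen with earlier results of these data known. Members were named if they were TIMPs, among the 4 highest of a family in TPM, at an unadjusted p under 0.05, or without overlap at a mean count of at least 50. Listed genes were named if called, or else the 2 highest in mean CPM, with up to 4 at an unadjusted p under 0.05. Dcn, Lyve1, Adam5, Adam9, Adamts3, Adamts5, Adamts12, Adamts14, Adamts15, Mmp3, Mmp9, Mmp25, Mmp16 and the silent members were named after their values were seen.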

Additional observations from a re-analysis of the deposited data

How the results depend on the processing

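DESeq2 called 2 members higher, Adamts2 and Adamts17, and 0 lower. In the other alternatives, those without 1 library included, 0 members were called in either direction. Over all alternatives 42 to 68 members were tested, and 6 to 12 had an unadjusted p under 0.05. The share of all genes at that p was taken only in the main fit, at 12.6%. Over all genes edgeR called 5, against 407 by DESeq2, 9 by limma on log2(TPM + 0.1), 3 by limma on log2(TPM + 1) without a filter, 2 with sex as a covariate and 1 to 4 without 1 library. With the replicate number as a block edgeR called 0 genes, so neither Dnmt3a nor Col3a1, and 8 of 51 tested members had an unadjusted p under 0.05. Deviations of same-numbered libraries from their group means correlated at 0.282, -0.0477 and -0.18 for replicates 1, 2 and 3, so the numbers were not taken to pair the samples. From the data, replicate 1 of each label was read as female, and replicates 2 and 3 of each label as male. The block by replicate number therefore takes in sex as well. Adjusted p-values over the alternatives ran from 0.000911 to 0.607 for Adamts2 and from 0.00630 to 0.615 for Adamts17. Of the 26 named members, 21 kept their sign in every alternative that tested them. The other 5, none of them called, did not: Adam19, Mmp14 and Mmp15 without KO replicate 2, Adamts9 without KO replicate 3, and Timp4 without KO replicate 2, with the block and by limma-voom. The causes were not tested. Libraries differed by 16.6 times in Adam33, 21.35 times in Adamts18 and 22.45 times in Adamtsl1, and some tested members had libraries at 0. With 3 libraries per label, such spread limits what can be detected.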
